A study of Homo sapiens with 6 samples.

Results

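The MYC and MAX network, a family of transcription factors that share a DNA binding and dimerisation domain, was followed in NB4 cells exposed to maltonis. Its 10 members were chosen by gene symbol, with no threshold on their values in the rule: the activators MYC and MYCN, their common partner MAX, the repressors MXD1, MXI1, MXD3, MXD4, MNT and MGA, and the MAX-like factor MLX. All 10 symbols are among the 23368 in the count tables, and 9 of them were among the 13209 genes with enough reads to be tested, MYCN being the exception.

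NB4 is an established human cell line of acute promyelocytic leukemia, in which the PML/RARA fusion protein is expressed. RNA-seq was performed on 3 libraries of cells left without treatment (n.t.) and on 3 libraries of cells that had received maltonis, a small molecule derived from maltol and dissolved in water, at 10 µM during 24 h. Both groups are the same line in the same medium, so the model is a single line at a single dose and time. The study describes the replicates as biological. The labels number them without saying whether they came from separate cultures, and if they did not, the p-values measure only the spread between these libraries, which may be technical.

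MYC and MAX form a dimer that binds the E-box CACGTG and activates genes of ribosome production, nucleotide and amino acid metabolism and cell division. MAX also pairs with the MXD proteins (MXD1, MXI1, also known as MXD2, MXD3 and MXD4) and with MNT, which bind the same E-boxes and recruit the SIN3 corepressor with its histone deacetylases. MGA joins MAX to a variant Polycomb complex called PRC1.6, and MLX pairs with MLXIP and MLXIPL, sensors of glucose metabolites, as well as with some MXD proteins and MNT. In myeloid precursors MYC is typical of the proliferating state, while MXD1 is known to increase as these cells mature.

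The 6 libraries held between 18492154 and 38205483 counts. A count of 3, used here as the detection floor, corresponded to between 0.0785 and 0.162 CPM (counts scaled to library size). Replicate 1 of both groups carries a different code in its deposited name from replicates 2 and 3. The meaning of the code is not stated, and the libraries are called batch A (replicate 1, 2 libraries) and batch B (replicates 2 and 3, 4 libraries). All 9 promyelocyte and myeloid markers exceeded 3 counts in at least 1 library, although ELANE, the neutrophil elastase gene, was at 0.0603 to 0.166 CPM in n.t. cells. The summed level of these markers was 14202 to 16626 CPM in n.t. and 8805 to 9301 CPM in maltonis-treated libraries, most of it from MPO, the myeloperoxidase gene. The markers did not move together: 4 of the 9, the granule genes ELANE, AZU1, PRTN3 and CTSG, were higher in every treated than in every n.t. library, and the other 5 were lower. CTSG was at 103 to 113 CPM in n.t. and at 539 to 576 CPM in treated libraries, and ELANE reached 14.5 to 21.0 CPM in treated libraries. Among markers of other cells, the 5 T cell genes, 4 of them above 3 counts in a library, summed to 49.5 to 52.4 CPM in n.t. and 18.3 to 19.1 CPM in treated libraries, and the 4 epithelial genes, 3 of them above 3 counts, to 38.6 to 39.6 and 29.3 to 31.5 CPM. The B cell, erythroid and fibroblast lists summed to at most 3.41, 3.89 and 0.878 CPM in any library. MS4A1 of B cells, HBB and HBA1 of erythroid cells and CDH1 of epithelial cells were at 0 throughout. The part of these marker shifts in the results below was not tested.

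The E-box that the network binds was searched in the promoters of its own members, since MYC and MXD dimers with MAX bind these 6 letters. Windows from 250 bases before to 50 bases after each start site came from RefSeq (GRCh38.p14) for the 9 members other than MYC. CACGTG is its own reverse complement, so that both strands were searched at once. It occurred in 3 of 14 windows of these 9 members, those of MXD4, MNT and MLX, against 2548 of 35116 windows of all genes (7.26%). The stretches holding the match are printed 5′ to 3′ on the strand of the gene, with the E-box in capitals.
MXD4, chr4:2262330-2262359, minus strand: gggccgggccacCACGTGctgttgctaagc
MNT, chr17:2401236-2401265, minus strand: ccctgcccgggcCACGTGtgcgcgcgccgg
MLX, chr17:42567038-42567067, plus strand: gcgggcgcgggtCACGTGggcacgccaccc
The E-box began 238 bases before the start site in MXD4, 193 bases before it in MNT and 50 bases before it in MLX. A match is a description of the letters and not a measured binding site. Of these 3 members MXD4 alone passed the test of its RNA described next.

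In maltonis-treated cells the network lost most of its MYC RNA and most of its MXI1 RNA, while MAX and MGA fell less, MXD1 and MXD4 rose and MXD3, MNT and MLX did not pass the test. Of the 9 members tested, 2 were called higher and 4 lower, with an adjusted p below 0.01 in the quasi-likelihood test of edgeR (Benjamini-Hochberg). This count has to be read against the genome-wide response, in which 64.0% of all tested genes were called, 31.9% higher and 32.1% lower. The share of members called lay close to that background. With the additional demands of a 2.5-fold change and an RPKM (CPM per kilobase of exon) above 10 in the higher group, 2 members were lower, MYC and MXI1, and 0 were higher, while 4.72% of tested genes passed the same criteria, 3.17% lower and 1.55% higher. The 3 n.t. and 3 treated libraries did not overlap for 7 of the 9 members, against 76.6% of all tested genes. A permutation of single values can give no p under 0.1 with 3 libraries against 3, and the exact two-sided permutation p was 0.1 for each of those 7 members.

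**Figure D1:**
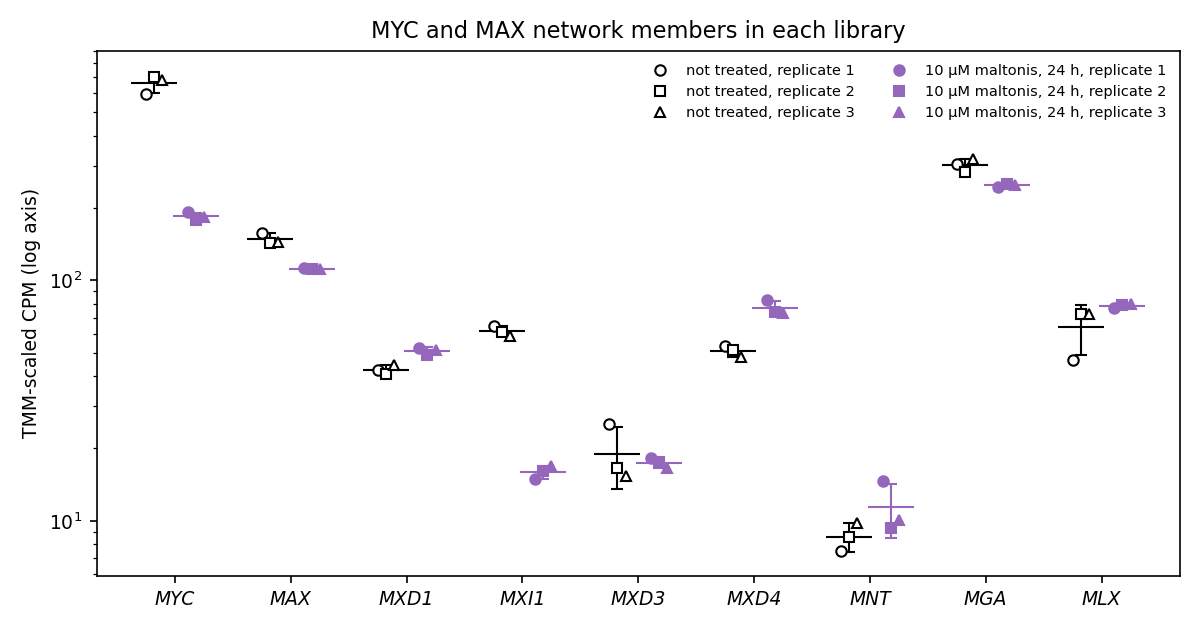
TMM-scaled CPM (vertical log axis) of the 9 network members tested, for each n.t. library (open symbols) and each maltonis library (filled symbols), with horizontal lines for the mean and bars for the SD of 3 libraries. MYC falls from 595 to 705 CPM to 179 to 192 CPM and MXI1 from 59.0 to 64.5 CPM to 14.9 to 16.8 CPM, while the libraries of MXD3 and of MNT overlap between the groups.

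MYC, the activator of the network, was at 595, 705 and 682 CPM in the n.t. libraries and at 192, 179 and 184 CPM after maltonis. Every treated library was below every n.t. library, and the treated libraries lay close together. The mean decreased from 661 ± 57.8 to 185 ± 6.64 CPM (SD, n = 3). The log2 fold change was -1.84 (SE 0.0763, 95% interval -2.01 to -1.66, adjusted p = 1.66e-07), or 3.58-fold lower. In size this change exceeded that of 88.4% of the genes tested. In bulk RNA, less MYC RNA per cell and fewer cells that express MYC cannot be told apart. The log2 difference was -1.63 within batch A and -1.94 within batch B, and the test of that difference gave an adjusted p of 0.186. No exon of MYC overlaps another gene in the GENCODE version 29 annotation.

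MYCN, the paralog best known from neuroblastoma, had counts of 0, 0 and 0 in n.t. and 0, 1 and 0 in treated libraries. All were under the floor of 3 counts, and MYCN was therefore not detectable at this depth in either group. The third paralog MYCL, listed as MYCL1, had counts of 13, 22 and 14 in n.t. and 5, 2 and 6 in treated cells. Its log2 fold change of -1.76 (SE 0.459, adjusted p = 0.00725) rests on these few reads, and in 6 of 15 alternative fits it was not called or, under the stricter filter on low counts, not tested. Activator RNA of the MYC family in NB4 was thus almost entirely MYC in both groups.

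MAX, without which MYC and the MXD proteins do not bind DNA, was at 158, 143 and 145 CPM in n.t. and at 112, 112 and 111 CPM in treated libraries. The groups did not overlap. The decrease was small beside that of MYC, from 149 ± 8.10 to 112 ± 0.542 CPM (SD, n = 3), with a log2 fold change of -0.41 (SE 0.0589, adjusted p = 0.000226) and differences of -0.49 in batch A and -0.37 in batch B. MYC RNA therefore stood at 6.59 ± 0.904 times that of MAX per kilobase in n.t. cells and at 2.44 ± 0.0782 times in treated cells (SD, n = 3).

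Among the MXD repressors MXI1 moved most. It was at 64.5, 61.1 and 59.0 CPM in n.t. and at 14.9, 16.1 and 16.8 CPM in treated libraries, again with no overlap. The mean decreased from 61.5 ± 2.79 to 15.9 ± 0.986 CPM (SD, n = 3). On the log2 scale MXI1 changed by -1.95 (SE 0.0764, 95% interval -2.12 to -1.77, adjusted p = 1.30e-07), or 3.85-fold lower. The decrease was seen within both batches (A, -2.11, and B, -1.86) and exceeded in size that of 89.5% of tested genes. The intervals of MXI1 and MYC overlap, and the ratio of their RNA per kilobase was 16.5 ± 2.05 in n.t. and 17.9 ± 1.68 in treated cells (SD, n = 3), with overlapping libraries.

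MXD4 changed the other way. The n.t. libraries were at 53.1, 51.4 and 48.0 CPM, and exposure to maltonis gave 82.8, 73.9 and 73.3 CPM. The groups were well apart, with means of 50.8 ± 2.63 and 76.7 ± 5.29 CPM (SD, n = 3) and a log2 fold change of 0.59 (SE 0.0736, adjusted p = 9.32e-05). Batch A gave 0.64 and batch B 0.57.

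MXD1, the member linked to myeloid maturation, was at 42.5, 40.7 and 44.4 CPM in n.t. and at 52.3, 48.9 and 51.3 CPM in treated libraries. The treated libraries were all higher, but the step was narrow. The log2 fold change was 0.26 (SE 0.0660, 95% interval 0.11 to 0.41, adjusted p = 0.00680), 0.30 in batch A and 0.24 in batch B. The adjusted p rose above 0.01 in 5 of the 6 fits that left 1 library out, to at most 0.0413 without n.t. replicate 2, and the direction was kept in each of them.

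MXD3, which is expressed in dividing cells, was at 25.2, 16.5 and 15.3 CPM in n.t. and at 18.2, 17.6 and 16.6 CPM in treated libraries. The groups overlapped and n.t. replicate 1 stood above all others. The log2 fold change was -0.11 (SE 0.174, 95% interval -0.51 to 0.29, adjusted p = 0.592), with opposite signs in batch A (-0.47) and batch B (0.10). RAB24 covers 18.0% of the MXD3 exon bases on the same strand and PRELID1 22.5% on the opposite strand, so that MXD3 reads are uncertain where the counting could share them.

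Summed per kilobase, the 4 MXD genes went from 30.9 ± 1.90 RPKM in n.t. to 25.7 ± 0.884 RPKM in treated cells (SD, n = 3). Within that sum MXI1 went from 43.2% ± 0.852 to 13.5% ± 1.23, MXD4 from 23.3% ± 0.755 to 42.2% ± 1.49 and MXD1 from 21.7% ± 1.77 to 31.1% ± 0.654 (SD, n = 3). MXD3 held 11.8% ± 2.59 and 13.2% ± 0.473 (SD, n = 3). MXI1 was thus the most abundant MXD transcript in n.t. cells and MXD4 in treated cells, in all 3 libraries of each group. MYC RNA stood at 7.15 ± 1.01 times the summed MXD RNA before and at 2.39 ± 0.0196 times after maltonis (SD, n = 3).

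**Figure D2:**
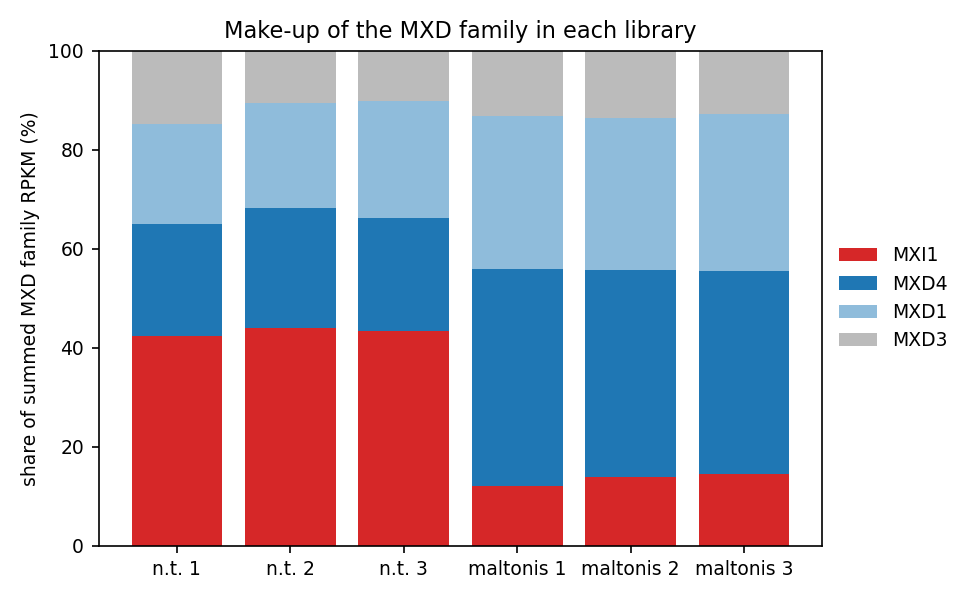
Share of each MXD gene in the summed RPKM of the MXD family (vertical axis, %), 1 bar per n.t. and maltonis library. MXI1 fills 42.3% to 44.0% of the n.t. bars and 12.1% to 14.4% of the maltonis bars, and MXD4 fills 22.7% to 24.1% and 41.0% to 43.9%.

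MNT, a broadly expressed antagonist of MYC, was at 7.46, 8.53 and 9.77 CPM in n.t. and at 14.7, 9.37 and 10.1 CPM in treated libraries. The groups overlapped, and treated replicate 1 was well above its replicates. The log2 fold change of 0.38 (SE 0.179, 95% interval -0.03 to 0.79, adjusted p = 0.0849) did not pass the test, and it combined 0.97 in batch A with 0.09 in batch B.

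MGA, the largest protein of the network and the MAX partner of PRC1.6, was at 305, 283 and 319 CPM in n.t. and at 244, 253 and 249 CPM in treated libraries. The groups did not overlap. The mean went from 303 ± 18.1 to 249 ± 4.26 CPM (SD, n = 3), with a log2 fold change of -0.28 (SE 0.0608, adjusted p = 0.00254), -0.32 in batch A and -0.26 in batch B. The call was lost when libraries were scaled by total counts (-0.17, adjusted p = 0.0405) or by their upper quartile (-0.20, adjusted p = 0.0190), which move the median of all genes to 0.13 and 0.10 from 0.01 on the log2 scale.

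MLX was at 46.9, 72.7 and 72.6 CPM in n.t. and at 76.4, 78.8 and 79.5 CPM in treated libraries. The groups did not overlap, but n.t. replicate 1 lay far under the other n.t. libraries, and the log2 fold change of 0.28 (SE 0.150, 95% interval -0.06 to 0.63, adjusted p = 0.117) did not pass the test. Without n.t. replicate 1 it was 0.10. Batch A gave a difference of 0.70 and batch B one of 0.12, and in a test of the treatment by batch interaction, which called 1.03% of all tested genes at an adjusted p under 0.05, MLX was the 1 member called. PSMC3IP covers 18.1% of the MLX exon bases on the opposite strand.

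**Figure D3:**
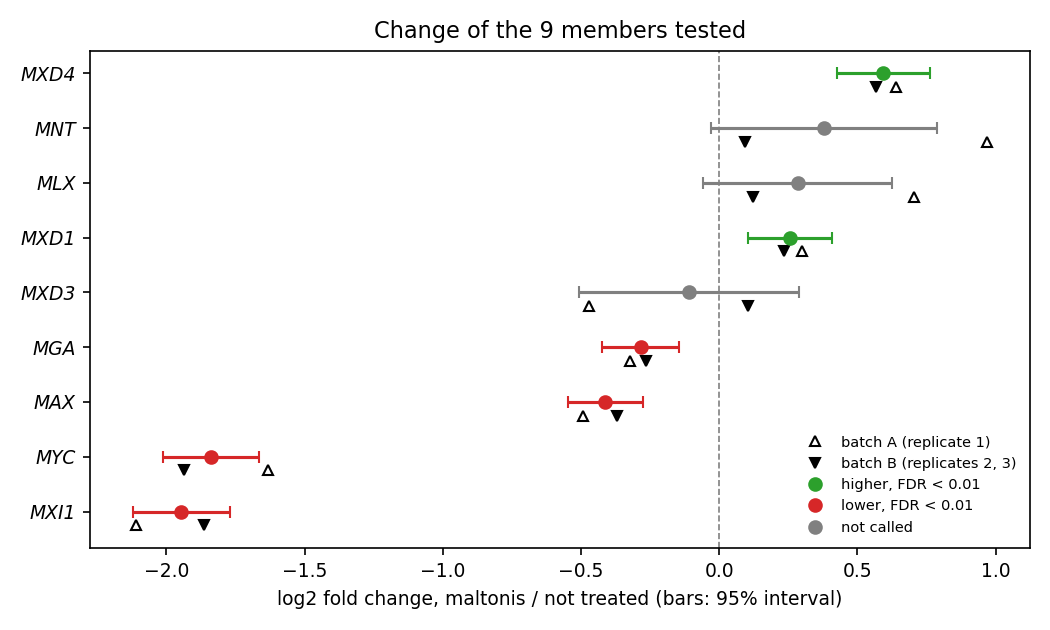
Log2 fold change of maltonis against n.t. (horizontal axis) for each member tested, with 95% intervals as bars and the difference within batch A (open triangles) and batch B (filled triangles) beside it. The 4 red members lie below 0 and the 2 green members above it in both batches, while the batches differ in sign for MXD3 and lie far apart for MNT and MLX.

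Levels of different genes were compared per kilobase of exon. In n.t. cells the order was MYC (220 RPKM), MAX (33.6), MGA (17.1), MLX (15.0), MXI1 (13.4), MXD4 (7.20), MXD1 (6.69), MXD3 (3.69), MNT (0.984) and MYCN (0). MGA and MLX, MLX and MXI1, and MXD4 and MXD1 were not separated, their libraries overlapping. In treated cells MYC (61.6 RPKM) and MAX (25.2) remained in front and were followed by MLX (18.4), MGA (14.1), MXD4 (10.9), MXD1 (8.0), MXI1 (3.46), MXD3 (3.39) and MNT (1.30). Here only MXI1 and MXD3 overlapped among neighbours. Which neighbours overlapped depended in both groups on the exon lengths used, as described below. MXI1 went from the fifth place to the seventh. Of all reads on the network, MYC held 45.9%, 51.0% and 48.9% in n.t. and 23.8%, 22.7% and 23.2% in treated libraries, and MGA, with its long transcript, held more reads than MYC in every treated library.

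The genes most alike MYC over the 6 libraries were searched by the Euclidean distance of log2 CPM, each gene centred on its mean. The 4 nearest were MKRN2 (distance 0.0425), ZNF212 (0.0976), SYNJ2 (0.142) and BLMH (0.144). MKRN2 decreased from 73.6 ± 5.05 to 20.5 ± 0.765 CPM and BLMH, a cysteine protease gene, from 177 ± 16.2 to 47.5 ± 1.28 CPM (SD, n = 3). Their log2 fold changes were -1.85 and -1.89, close to the value of MYC by construction of the search.

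Genes around the network were taken from 11 hand-written lists, of which 147 genes were tested. Of these 22 were higher, 79 lower and 46 not called, with a median log2 fold change of -0.38, while the median of all tested genes was 0.01 and 64.0% of them were called, 31.9% higher and 32.1% lower. The lists were chosen with results of these data known and are described by their counts only.

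Of 29 tested genes that MYC is known to activate, 25 were lower, 1 was higher and 3 were not called. Their median was -0.94, and over all tested genes 32.1% were lower and 31.9% higher. The lowest were CCND2, the cyclin D2 gene, from 970 ± 57.0 to 181 ± 1.11 CPM (log2 fold change -2.42, adjusted p = 2.55e-08), and NME1, a nucleoside diphosphate kinase, from 205 ± 5.04 to 44.9 ± 1.65 CPM (-2.19, adjusted p = 2.68e-08; SD, n = 3). SHMT2, the mitochondrial serine hydroxymethyltransferase, was the exception and rose from 480 ± 21.8 to 675 ± 8.56 CPM (0.49, adjusted p = 5.66e-05). EIF4A1, named here after its values were seen, is listed at 0 in every library and was not tested. The number of lower genes in this list was 24 to 27 over the 15 alternatives.

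The next list held MIZ1, the factor through which MYC represses, and genes it is known to repress. Of its 8 tested genes 6 were lower and 2 higher, with a median of -0.85. The shares over all tested genes were 32.1% lower and 31.9% higher. CDKN1A, the cell cycle inhibitor p21, had 431, 741 and 679 counts in n.t. and 41, 43 and 44 counts in treated libraries, a log2 fold change of -3.73 (SE 0.156, adjusted p = 1.72e-07). NDRG2 decreased from 1.59 ± 0.0579 to 0.298 ± 0.234 CPM (-2.57, adjusted p = 0.000227). GADD45A, a growth arrest gene, rose from 6.67 ± 1.14 to 12.4 ± 0.752 CPM (0.88, adjusted p = 0.000297), and ZBTB17, which encodes MIZ1 itself, from 34.9 ± 1.41 to 41.9 ± 2.57 CPM (0.26, adjusted p = 0.00975; SD, n = 3). The ZBTB17 call was near the threshold, and this list had only 1 higher gene in 8 of the 15 alternatives.

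**Figure D4:**
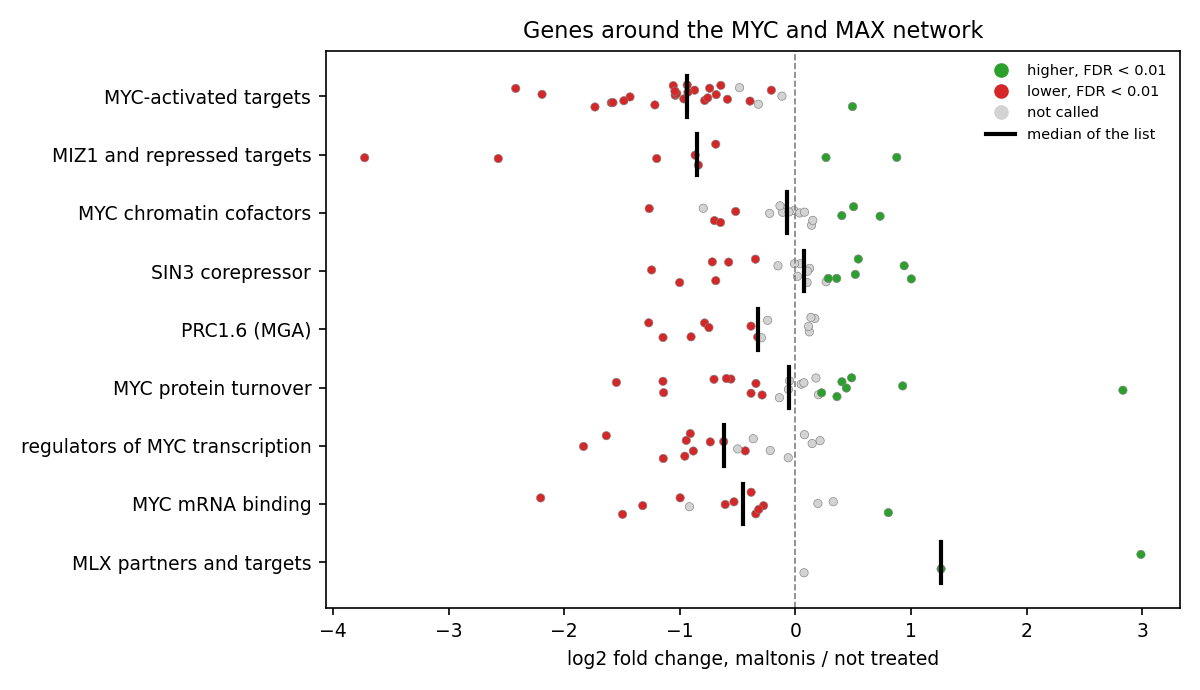
Log2 fold change of maltonis against n.t. (horizontal axis) of every tested gene of 9 lists around the network, 1 point per gene, with the list median as a black bar. The medians of MYC-activated and MIZ1 and repressed genes lie at -0.94 and -0.85, those of cofactors, SIN3 and turnover genes between -0.08 and 0.07, and that of the MLX list at 1.26.

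Both targets of MLX dimers that were tested rose, while 31.9% of all tested genes were called higher and 32.1% lower. TXNIP, a target of MLX dimers that restrains glucose uptake, was at 263, 258 and 257 CPM in n.t. and at 628, 603 and 630 CPM in treated libraries, a log2 fold change of 1.26 (SE 0.0524, adjusted p = 1.69e-07). Its relative ARRDC4 was at 29.8, 30.7 and 27.2 CPM in n.t. and at 231, 230 and 235 CPM in treated libraries (2.99, SE 0.0662, adjusted p = 1.92e-08). Both were clearly separated between the groups. The dimer partner MLXIP was at 31.3 ± 2.10 and 33.1 ± 6.49 CPM (SD, n = 3; 0.07, adjusted p = 0.624). MLXIPL had counts of 0, 0 and 0 in n.t. and 4, 6 and 5 in treated libraries, and the filter on low counts left it untested. Without that filter this list had 4 genes tested and 3 higher, in place of 3 and 2. In that fit 4363 of all 18253 genes were higher.

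Of 20 tested genes of the SIN3 complex, which MXD proteins and MNT recruit, 6 were higher, 6 lower and 8 not called, with a median of 0.07, shares near the 31.9% higher and 32.1% lower of all tested genes. The scaffold SIN3A was at 151 ± 26.4 and 165 ± 5.68 CPM (SD, n = 3; 0.12, adjusted p = 0.347), while its paralog SIN3B rose from 32.3 ± 1.36 to 47.1 ± 2.57 CPM (0.54, adjusted p = 0.000129). SAP130 (1.00) and ING1 (0.94) had the highest log2 fold changes among called genes of the complex, and FAM60A (-1.24) and the glycosyltransferase OGT (-1.0) the lowest.

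Of 13 tested genes of PRC1.6, the complex that holds MGA, 0 were higher, 7 lower and 6 not called, with a median of -0.33. Over all tested genes 64.0% were called, 31.9% higher and 32.1% lower. The chromodomain gene CBX1 (-1.27) and the E2F partner TFDP1 (-1.15) were the lowest. E2F6, which binds DNA within this complex, fell from 27.7 ± 1.22 to 22.1 ± 0.403 CPM (SD, n = 3; -0.33, adjusted p = 0.00247). PCGF6 (0.12, adjusted p = 0.194) and L3MBTL2 (0.11, adjusted p = 0.137), subunits that define the complex, did not pass the test.

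Chromatin cofactors of MYC gave 3 higher, 4 lower and 11 not called of 18 tested, with a median of -0.08. That median became positive with total count (0.04) or upper quartile scaling (0.01) and without n.t. replicate 3 (0.04). Among all tested genes 64.0% were called, 31.9% higher and 32.1% lower. RUVBL1, a helicase of chromatin remodelling complexes (-1.26), and WDR5 (-0.70), which anchors MYC to chromatin, were the lowest, and the acetyltransferase gene KAT5 (0.73) and PAF1 (0.50) the highest. TRRAP, the scaffold of MYC-bound acetyltransferases, had a wide spread, with 175 ± 75.9 CPM in n.t. and 100 ± 17.9 CPM in treated cells (SD, n = 3; -0.80, adjusted p = 0.0298), and was not called.

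Of 23 tested genes that act on MYC protein stability, 7 were higher, 9 lower and 7 not called. These shares were near those of all tested genes, of which 64.0% were called, 31.9% higher and 32.1% lower. The list median of -0.05 turned to 0.07 with total count scaling and to 0.03 with upper quartile scaling. It turned to 0.02 without n.t. replicate 3 and to 0.0029 without treated replicate 3. Without treated replicate 2 only 4 of these genes were called higher. FBXW7, the ubiquitin ligase subunit that recognises phosphorylated MYC, fell from 44.7 ± 2.90 to 36.6 ± 1.89 CPM (SD, n = 3; -0.29, adjusted p = 0.00769). The mitotic kinase PLK1 (-1.55) and GSK3A (-1.15) were the lowest. FBXO32 had the highest log2 fold change (2.83) but few reads, with counts of 2, 5 and 4 in n.t. and 16, 23 and 35 in treated libraries. MAPK3, which encodes the kinase ERK1, followed with 0.93. The list was not divided into genes that stabilise and destabilise MYC, so its counts and median give no direction of effect. Protein was not analysed here.

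Among 17 tested regulators of MYC transcription 0 were higher, 10 lower and 7 not called, with a median of -0.62. This list was not divided into activators and repressors of MYC, so its count and median give no direction of effect on MYC. For this list and the next, the shares over all tested genes were 31.9% higher and 32.1% lower. CTNNB1, the β-catenin gene, fell from 292 ± 4.98 to 81.9 ± 3.50 CPM (-1.83, adjusted p = 4.54e-08), and MYB, a factor of immature blood cells, from 445 ± 28.1 to 143 ± 2.58 CPM (-1.64, adjusted p = 1.25e-07; SD, n = 3). Among 14 tested genes for proteins that bind MYC mRNA, 1 was higher, 10 lower and 3 not called, with a median of -0.46. ZFP36L1 (-2.20, with counts of 28, 24 and 14 in treated libraries) and IGF2BP2 (-1.50) were the lowest. ZFP36 was the gene called higher (0.80, adjusted p = 0.00871), while ZFP36L2 was called lower (-0.34, adjusted p = 0.00932). ZFP36 was at 14.0, 7.49 and 8.77 CPM in treated libraries, a log2 difference of 1.34 in batch A and 0.49 in batch B. The list had 0 higher genes without n.t. replicate 1, 2 or 3 and without treated replicate 3. PVT1, the noncoding gene next to MYC, was at 32.6, 30.3 and 30.9 CPM in n.t. and at 16.3, 15.5 and 17.6 CPM in treated libraries. It fell without overlap (-0.92, SE 0.0781, adjusted p = 8.45e-06) and was the only tested gene of 7 neighbours listed, 3 of which are in the files.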

How the data were processed

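NB4 RNA was sequenced in 3 n.t. libraries and in 3 libraries of cells given maltonis (10 µM, 24 h), prepared from total RNA with a stranded kit. The authors deposited 1 table of raw counts per library, whole numbers of reads per gene symbol without normalization. The submitters' processing notes name TopHat, Bowtie2, HTSeq and hg19. Versions, gene annotation and strand setting of the counting are not given in the sources used here, so overlapping, antisense and paralogous genes are uncertain. All rows name a gene.

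The count analysis used edgeR 4.0.16 in R 4.3.3 (TMM scaling, filterByExpr, quasi-likelihood test, 6 libraries in 1 fit, no covariates), with Benjamini-Hochberg adjustment over 13209 genes, and summarised in Python 3.11.15. Every adjusted p of a gene is from this edgeR test, and a call means an FDR under 0.01. The SE of a log2 fold change was computed as its size divided by the square root of the F statistic. The stricter criteria (2.5-fold, RPKM above 10) follow the study. CPM are TMM-scaled. RPKM used all exons of GENCODE version 29, matched for 20195 symbols by name and 1463 by synonym, with 1710 unmatched. Floors cover counting error only. Log2 differences within batches are on log2 CPM (prior count 2), and a treatment by batch interaction was tested in edgeR, an analysis added after the data were seen.

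Replicate libraries differed by more than sampling noise (chi-square per degree of freedom 4.15 to 33.1). Members and lists were chosen with earlier results of these data known. Named genes are the 10 members and up to 2 called genes at each end of every list. MLXIP, MLXIPL, TXNIP, ARRDC4, ZBTB17, SIN3A, SIN3B, TRRAP, FBXW7, PCGF6, L3MBTL2, E2F6, PVT1 and MYCL were named as well. Of the 5 genes most alike MYC, 4 are reported here. EIF4A1 and ZFP36L2 are list genes named outside this rule. Alternatives were other scalings (DESeq2 1.42.0 size factors, total counts, upper quartile), DESeq2's test, edgeR's likelihood ratio test, filters, a replicate block, batch B alone, each library left out, and RefSeq-linked exon lengths. The test was also run, after the fits, on simulated counts with known changes, drawn from the means and dispersions of these data. Promoter sequences were available here for 9 of the 10 members.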

Additional observations from a re-analysis of the deposited data

Results flagged for a closer look

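The log2 difference of MLX between treated and n.t. cells was 0.70 in batch A, which has 1 library per group, and 0.12 in batch B, and the interaction of treatment and batch was -0.58 (batch B minus batch A, SE 0.0961, adjusted p = 0.0277 in the quasi-likelihood test of edgeR, adjusted by Benjamini-Hochberg over all genes). By this test 136 of 13209 genes (1.03%) had an adjusted p under 0.05. The n.t. library of batch A was at 46.9 CPM and the other 5 libraries at 72.6 to 79.5 CPM, so that the interaction rests on that library. With 1 library per group in batch A, the spread in the test comes from batch B alone, and a difference in response cannot be told apart from that 1 library. The interaction was -0.89 for MNT (adjusted p = 0.112) and 0.58 for MXD3 (adjusted p = 0.153), and neither passed.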

How the results depend on the processing

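Over 15 alternative fits, MYC (-1.94 to -1.72), MAX (-0.44 to -0.29), MXI1 (-2.01 to -1.83) and MXD4 (0.51 to 0.71) kept direction and call, and MNT (0.09 to 0.50) and MLX (0.10 to 0.40) stayed positive and uncalled. MGA (-0.34 to -0.17) lost its call under total count and upper quartile scaling. MXD1 (0.21 to 0.38) was called in 9 of 15 fits. The number of members called higher was 1 without a filter on low counts, because MXD1 had an adjusted p of 0.0117, and 1 to 2 with 1 library left out. The sign of MXD3 turned with total count scaling (0.0097), without n.t. replicate 1 (0.12) and in batch B alone (0.10), and ranged from -0.25 to 0.12 with 1 library left out. The MYC share of the network was 69.2% in n.t. and 42.1% in treated cells by RPKM in place of counts, since MGA is long. With RefSeq-linked exon lengths MYC kept the first place and MXD3 stood above MXI1 in treated cells, without overlap. With those lengths MGA and MXD4 overlapped in treated cells. In n.t. cells MLX and MXI1, and MXD4 and MXD1, were then separated, while MXD1 and MXD3 overlapped. The replicate block gave 2 members higher and 4 lower, -1.84 for MYC, and 25 list genes higher and 87 lower, against 22 and 79 without it. Deviations of same-numbered libraries correlated at 0.301, 0.0852 and 0.161. Those of differently numbered libraries correlated at 0.123 and 0.139 within batch B and at -0.232 to -0.162 between the batches. The study's methods name no pairing, and the numbers were not taken as pairs. Over all tested genes the replicate block called 4602 higher and 4620 lower, against 4213 and 4239 without it. MYCN counts of at most 1 limit what could be seen for this gene.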
